A study of Mus musculus with 224 samples.

Results

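The genes described here encode the protein subunits of respiratory complexes II to V and cytochrome c. They were taken as all probesets with the single gene symbol Sdha, Sdhb, Sdhc, Sdhd, Cyc1 or Cycs, or with a symbol that starts with Uqcr, Atp5, Cox4, Cox5, Cox6, Cox7 or Cox8. This gave 96 probesets of 48 genes, out of 45037 probesets and 18193 genes on the array, and a gene was represented in a region by its probeset with the highest mean there. Of the 48 genes, 4 belong to complex II, 9 to complex III, 17 to complex IV and 17 to complex V (ATP synthase), and Cycs encodes cytochrome c.

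RNA was measured on Affymetrix mouse expression arrays in 5 regions of the brain, namely prefrontal cortex (PFC), hippocampus (HPC), nucleus accumbens (NAC), central amygdala (CeA) and bed nucleus of the stria terminalis (BNST), of male C57BL/6J mice bought at 10 weeks of age. CIE Drinking mice inhaled ethanol vapor (chronic intermittent ethanol, CIE) for 16 h a day on 4 days of each of 4 cycles, and after 72 h of abstinence drank 15% (v/v) ethanol for 2 h a day on 5 days. CIE NonDrinking mice had the vapor and only water, Air Drinking mice had air chambers and the same ethanol access, and Air NonDrinking mice had air and water and stayed free of ethanol. All 4 groups were injected with 1 mmol/kg pyrazole, an inhibitor of alcohol dehydrogenase, which CIE mice received together with 1.6 g/kg ethanol, and the drinking groups had also drunk ethanol for 6 weeks before the first cycle. The groups thus differed in the total dose of ethanol and in the time since the last exposure, and each region is a block of mixed cells from 1 mouse.

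There were 224 arrays of 51 mouse numbers. Each number is treated here as 1 mouse, as the labels have it, although the groups then hold 12 to 14 mice and the methods describe fewer in all. For CIE Drinking, CIE NonDrinking, Air Drinking and Air NonDrinking mice, in this order, the PFC had 12, 12, 11 and 12 arrays, the NAC 11, 12, 12 and 12, the HPC 12, 11, 11 and 8, the BNST 12, 11, 12 and 10, and the CeA 12, 11, 12 and 8. Markers of the labelled region had array means with a median of 9.32 (log2) for the PFC, 10.46 for the HPC and 12.09 for the NAC, and those of the extended amygdala 10.37 in the BNST and 9.65 in the CeA. The highest list of another region on the same arrays had 8.66 in the PFC (NAC markers) and 9.89 in the HPC (PFC markers). It had 9.26 in the NAC (extended amygdala markers), 9.40 in the BNST (NAC markers) and 9.11 in the CeA (HPC markers). Markers of the choroid plexus, the epithelium in the brain ventricles that secretes cerebrospinal fluid, had array means of 7.73 to 12.99 in the CeA and 4.50 to 7.54 in the 4 other regions. The CeA arrays fell into 33 with a choroid plexus level of 11.29 to 12.99 and 10 with a level of 7.73 to 9.50, and results for the CeA are therefore given with and without the 10.

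Complex II, succinate dehydrogenase, takes electrons from succinate in the citric acid cycle to ubiquinone. Complex III passes them from ubiquinol to cytochrome c, and complex IV, cytochrome c oxidase, from cytochrome c to oxygen. Complexes III and IV pump protons, and the ATP synthase lets them flow back and makes ATP. Neurons draw most of their ATP from this chain. Several subunits of complex IV come in isoforms encoded by separate genes, with a form found in most tissues and others that are best known from heart and skeletal muscle, lung or testis. All genes treated here are nuclear, and many of their promoters are known targets of nuclear respiratory factor 1 (NRF1) and of GABPA, a factor of the ETS family.

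The promoters of the 2 genes that passed the test, Uqcrc1 and Uqcr11, and those of the isoform pair Cox8b and Cox8a are shown because the results below turn on these genes. The sequences are from RefSeq on mouse build GRCm38.p6, run 5′ to 3′ from 250 bases before to 50 bases after the gene's start, and lie at chr9:108936398-108936697 (plus strand) for Uqcrc1, chr10:80406772-80407071 (minus strand) for Uqcr11, chr7:140900397-140900696 (minus strand) for Cox8b and chr19:7217567-7217866 (minus strand) for Cox8a. Capitals mark matches on either strand to the core NRF1 sequence GCATGCGC, the ETS sequence CCGGAAG and the TATA box TATAAA.
Uqcrc1: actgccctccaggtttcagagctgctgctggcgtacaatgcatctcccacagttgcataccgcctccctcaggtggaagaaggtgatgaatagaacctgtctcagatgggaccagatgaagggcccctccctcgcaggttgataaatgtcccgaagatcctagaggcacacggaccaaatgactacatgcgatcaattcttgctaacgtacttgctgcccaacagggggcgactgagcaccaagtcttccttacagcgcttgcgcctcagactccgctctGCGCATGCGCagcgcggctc
Uqcr11: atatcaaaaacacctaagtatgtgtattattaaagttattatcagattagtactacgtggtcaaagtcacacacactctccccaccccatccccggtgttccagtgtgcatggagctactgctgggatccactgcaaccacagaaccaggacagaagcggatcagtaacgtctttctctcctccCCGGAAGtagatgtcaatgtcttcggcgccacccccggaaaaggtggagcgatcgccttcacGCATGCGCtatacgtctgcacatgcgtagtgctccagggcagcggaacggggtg
Cox8b: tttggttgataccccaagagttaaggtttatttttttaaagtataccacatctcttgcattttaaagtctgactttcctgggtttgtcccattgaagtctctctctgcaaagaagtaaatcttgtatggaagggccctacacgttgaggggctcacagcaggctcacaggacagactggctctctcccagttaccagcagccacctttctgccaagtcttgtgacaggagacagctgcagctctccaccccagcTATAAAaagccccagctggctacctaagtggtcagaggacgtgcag
Cox8a: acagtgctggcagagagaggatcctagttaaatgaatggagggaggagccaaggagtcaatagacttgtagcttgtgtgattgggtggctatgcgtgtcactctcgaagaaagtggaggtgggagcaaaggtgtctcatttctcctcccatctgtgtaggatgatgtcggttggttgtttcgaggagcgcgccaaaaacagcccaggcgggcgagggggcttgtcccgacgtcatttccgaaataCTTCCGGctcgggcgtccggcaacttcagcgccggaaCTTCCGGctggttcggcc
Uqcrc1 held overlapping matches to GCATGCGC on both strands just after the start, Uqcr11 held 1 match to CCGGAAG and 1 to GCATGCGC, and Cox8a held 2 matches to CCGGAAG, both read on the other strand. Cox8b held neither and had a TATA box instead. Of the 48 genes 36 had a promoter in the RefSeq table. GCATGCGC stood in 8 of the 36 (22.2%), against 3.05% of 27025 promoters of all genes, CCGGAAG in 13 (36.1%, against 9.93%) and TATAAA in 4 (11.1%, against 15.7%). A match describes the letters only, and the absence of one says nothing about binding of the factor.

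Few of these genes changed in any region. LIMMA was fitted in each region to the log2 values of all probesets with 1 mean per group, the Benjamini-Hochberg adjustment (FDR) ran over all probesets of a region and comparison, and an adjusted p of at most 0.01 made a call. The effect of vapor was compared in drinking mice (Comparison 1, CIE Drinking vs. Air Drinking) and without drinking (Comparison 2, CIE NonDrinking vs. Air NonDrinking). Drinking was compared after vapor in Comparison 3, which set CIE Drinking against CIE NonDrinking mice, and after air in Comparison 6, which set Air Drinking against Air NonDrinking mice. Comparison 4 set CIE Drinking against Air NonDrinking mice, and Comparison 5 set CIE NonDrinking against Air Drinking mice. Log2 fold changes are those of the group named first over the other. Of the 1440 pairs of gene and comparison over the 5 regions, 2 were called (0.139%, against 0.377% of the pairs of all genes) and 167 had an unadjusted p under 0.05 (11.6%, against 13.0% for all genes), while 1313 had a log2 fold change under 0.1 in size. The 95% interval of the change stayed within 1.2-fold in either direction for 1327 pairs (92.2%), so that for most of these genes larger changes lie outside the interval. The largest log2 fold change outside the CeA was 0.29 in size. In bulk tissue, fewer cells of a type and less RNA per cell cannot be told apart.

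**Figure D1:**
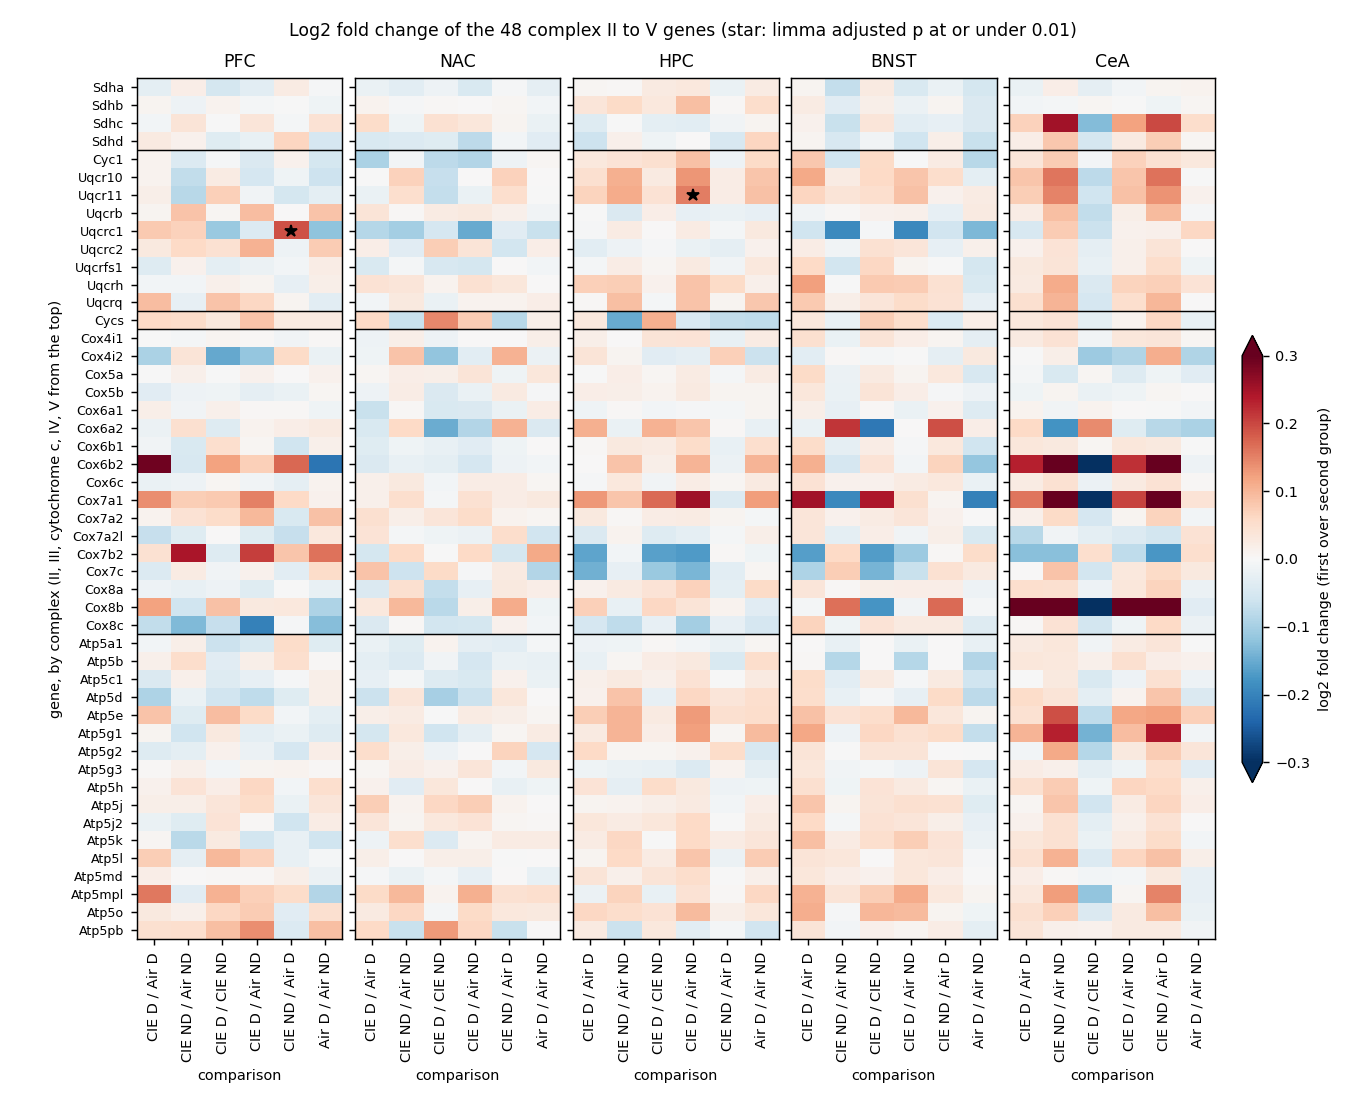
Log2 fold change of the 48 genes (rows, grouped by complex) in Comparisons 1 to 6 of each of the 5 regions (columns), on a colour scale cut at 0.3 in either direction, with stars at the 2 changes called by LIMMA. Colours are pale in the PFC, NAC, HPC and BNST, and the strongest stand in the CeA rows of Cox8b, Cox7a1 and Cox6b2.

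In the PFC, 1 of the 48 genes was called in Comparison 5, against 0.715% of all 18193 genes. It was Uqcrc1, which encodes core protein 1 of complex III, a large subunit on the matrix side that is related to the peptidases that process imported proteins. Its log2 value, given as the lowest, median and highest array, was 11.54, 11.64 and 11.73 in CIE Drinking mice and 11.63, 11.76 and 11.88 in CIE NonDrinking mice. It was 11.44, 11.56 and 11.70 in Air Drinking mice and 11.60, 11.70 and 11.81 in Air NonDrinking mice. The CIE NonDrinking arrays were the highest and the Air Drinking arrays the lowest, with little overlap, since 10 of 12 CIE NonDrinking arrays lay above every Air Drinking array and all 12 above their median.

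The log2 fold change of Uqcrc1 in Comparison 5 was 0.19 (SE 0.03, 95% interval 0.13 to 0.25, LIMMA adjusted p = 4.66e-05). Comparison 5 changes vapor and drinking at the same time. For vapor within a drinking state the change was 0.08 in Comparison 1 (adjusted p = 0.104 by LIMMA) and 0.07 in Comparison 2 (adjusted p = 0.150). For drinking it was −0.11 in Comparison 3 (adjusted p = 0.0139) and −0.12 in Comparison 6 (adjusted p = 0.0111), both short of the threshold. In the fit of vapor, drinking and their interaction, Uqcrc1 fell by 0.12 on the log2 scale with drinking (adjusted p = 0.000951 by LIMMA), the only one of the 48 genes called for drinking in the PFC, against 0.693% of all genes. The vapor term was 0.07 (adjusted p = 0.0335) and the interaction 0.01 (adjusted p = 0.939, SE 0.04). Over any difference between groups by the moderated F statistic, Uqcrc1 had an adjusted p of 0.000179 and was the only gene of the 48 called in the PFC, against 4.99% of all genes.

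The change of Uqcrc1 rested on no single array. Leaving out each of the 23 arrays of both groups in turn gave log2 fold changes of 0.18 to 0.20 with LIMMA adjusted p-values of 1.87e-05 to 0.000172. Over the 47 PFC arrays, with group means removed, Uqcrc1 correlated with the level of no cell type list, the largest being that of parvalbumin interneurons (Pearson r = 0.22, Spearman rho = 0.21, permutation p = 0.154 and 0.172, adjusted p = 0.257 for r, r = 0.19 without the 2 farthest arrays). In the same comparison the striatal markers used for the NAC were above 0 for 6 of 6 genes, with a median log2 fold change of 0.30 and none called, and Malat1, a nuclear long noncoding RNA, fell by 0.55 on the log2 scale (adjusted p = 0.000454 by LIMMA). Their part in the difference of Uqcrc1 was not tested.

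In the HPC, 1 of 48 genes was called in Comparison 4, against 1.45% of 18064 genes. It was Uqcr11, which encodes a small accessory subunit of complex III at the edge of the complex. Its log2 value was 12.27, 12.40 and 12.47 (lowest, median and highest) in CIE Drinking mice and 12.21, 12.36 and 12.41 in CIE NonDrinking mice. It was 12.13, 12.35 and 12.43 in Air Drinking mice and 12.12, 12.25 and 12.31 in Air NonDrinking mice. The ethanol-free group was the lowest, and 11 of 12 CIE Drinking arrays lay above all 8 of its arrays.

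The log2 fold change of Uqcr11 in Comparison 4 was 0.15 (SE 0.03, 95% interval 0.09 to 0.22, LIMMA adjusted p = 0.00166). The groups with only vapor or only drinking lay between, with 0.11 in Comparison 2 (adjusted p = 0.313 by LIMMA) and 0.09 in Comparison 6 (adjusted p = 0.596), and Comparison 1 gave 0.07 (adjusted p = 0.228). The vapor term was 0.09 (adjusted p = 0.0172). Leaving out each of the 20 arrays of both groups in turn gave 0.14 to 0.17 with LIMMA adjusted p-values of 0.000637 to 0.00772. With group means removed, Uqcr11 followed the level of the neuron markers over the 42 HPC arrays (Pearson r = 0.47, Spearman rho = 0.42, permutation p = 0.00168 and 0.00749, adjusted p = 0.0063 for r, r = 0.40 without the 2 farthest arrays). The neuron markers themselves had 6 of 12 genes above 0 in Comparison 4, a median log2 fold change of 0.02 and none called, with array means of 11.62 to 11.99 in CIE Drinking mice and 11.66 to 11.97 in Air NonDrinking mice. Malat1 rose by LIMMA in the same comparison (log2 fold change 0.72, adjusted p = 0.00423). Of the microglia markers 8 of 9 were above 0 (median 0.06) with array means of 9.55 to 9.94 in CIE Drinking mice and 9.54 to 9.95 in Air NonDrinking mice, and Cx3cr1, the fractalkine receptor gene, was called (0.34). Their part in the difference of Uqcr11 was not tested.

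**Figure D2:**
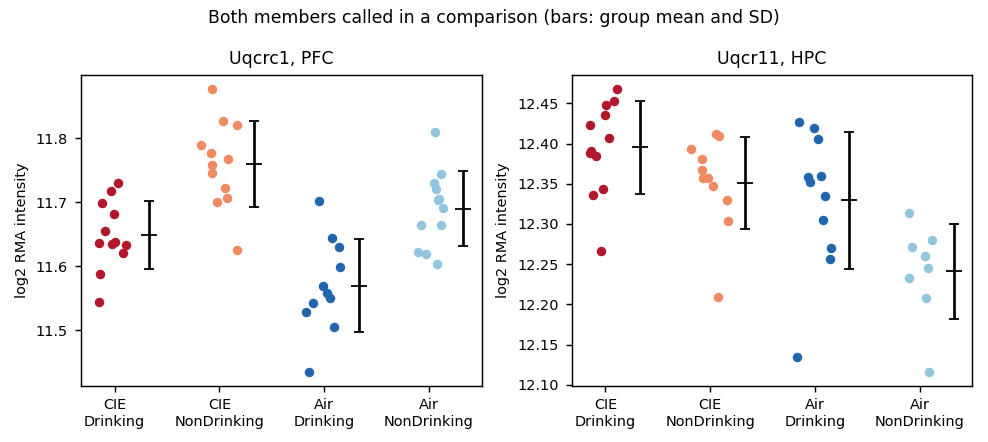
Log2 expression of Uqcrc1 and Uqcr11 in the PFC and the HPC, with 1 point per array and the mean and SD of each of the 4 groups. Uqcrc1 in the PFC was highest in CIE NonDrinking mice (median 11.76) and lowest in Air Drinking mice (median 11.56), and Uqcr11 in the HPC was highest in CIE Drinking mice (median 12.40) and lowest in Air NonDrinking mice (median 12.25).

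Outside the PFC, Uqcrc1 was not called. Its log2 fold changes lay between −0.15 and −0.03 for the NAC, between −0.00 and 0.03 for the HPC, between −0.19 and −0.00 in the BNST and between −0.06 and 0.08 in the CeA, and the smallest LIMMA adjusted p was 0.0731, for −0.19 in Comparison 4 in the BNST. Responses of the PFC and another region were compared for Comparisons 1, 3 and 4, in a fit of all arrays with 1 mean for each region and group. Whether the change of Uqcrc1 in Comparison 5 differs between regions was not tested. Of the 12 contrasts of the PFC with another region in these comparisons, 2 held a called gene. Uqcrc2, the second core protein of complex III, had a log2 fold change in Comparison 1 of 0.07 in the PFC and −0.06 in the NAC on its brightest probeset over all regions, a difference of 0.13 (SE 0.03, LIMMA adjusted p = 0.00438, 1 of 48 genes against 0.547% of 17924 genes). Atp5c1, the gamma subunit that forms the turning stalk of ATP synthase, had −0.04 in the PFC and 0.06 in the BNST, a difference of −0.10 (SE 0.03, adjusted p = 0.00762, 1 of 48 against 2.34%). The 10 other contrasts had 0 of 48, against 1.42% of genes for the HPC and 4.22% for the CeA in Comparison 1. In Comparison 3 the share of genes was 0.0391% for the NAC, 0.0112% for the HPC, 0.24% for the BNST and 1.48% for the CeA, and in Comparison 4 it was 0.0614%, 2.45%, 0.34% and 1.56%. Neither gene was called within a region, with adjusted p-values of 0.0540 in the PFC for Uqcrc2 and 0.0865 in the BNST for Atp5c1. Within the PFC and within the NAC another probeset of Uqcrc2 was the brightest, and its difference is not given here.

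In the BNST, many of the genes were slightly higher in CIE Drinking than in Air Drinking mice, although none of 48 was called, against 0.471% of 18058 genes. In Comparison 1, 41 of 48 were above 0 with a median log2 fold change of 0.04, against 9117 of 18058 genes and a median of 0.00. An unadjusted p under 0.05 was found for 20 of the 48, of which 19 were higher, and for 4421 of 18058 genes. All 17 genes of complex V were above 0 (median 0.05), as were 7 of 9 of complex III (median 0.06), 12 of 17 of complex IV (median 0.04) and 4 of 4 of complex II (median 0.01).

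The smallest p-values in this comparison were those of Atp5g1, one of the genes for the ring of c subunits through which protons pass in ATP synthase, and Uqcrh, the hinge protein of complex III. Atp5g1 was 12.04, 12.11 and 12.21 (lowest, median and highest) in CIE Drinking mice and 11.89, 12.00 and 12.08 in Air Drinking mice, and 10 of 12 CIE Drinking arrays lay above all Air Drinking arrays. Its log2 fold change was 0.12 (SE 0.03, 95% interval 0.06 to 0.17, LIMMA adjusted p = 0.0148). Uqcrh was 12.97, 13.08 and 13.21 in CIE Drinking mice and 12.83, 12.94 and 13.09 in Air Drinking mice. Its difference of 0.12 on the log2 scale was also short of the threshold (SE 0.03, LIMMA adjusted p = 0.0183). Cyc1, the cytochrome c1 of complex III, was 12.33, 12.37 and 12.44 in CIE Drinking mice and 12.19, 12.28 and 12.41 in Air Drinking mice, with a log2 fold change of 0.08 (adjusted p = 0.0498) and an interaction of 0.14 (adjusted p = 0.0493). The groups overlapped for each of these genes, yet every CIE Drinking array was above the Air Drinking median. With array quality weights 7 of the 48 genes were called in this comparison, all of them higher in CIE Drinking mice, but so were 12.2% of all genes.

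Other markers moved in the same comparison of the BNST. Markers of endothelial cells and pericytes were above 0 for 9 of 9 genes (median 0.10), with array means of 9.07 to 9.37 in CIE Drinking mice and 8.92 to 9.34 in Air Drinking mice. Those of oligodendrocytes were above 0 for 11 of 11 (median 0.10), with 11.57 to 11.98 in CIE Drinking mice and 11.44 to 11.99 in Air Drinking mice, and those of neurons for 9 of 12 (median 0.03), with 11.71 to 12.03 in CIE Drinking mice and 11.74 to 11.96 in Air Drinking mice. The striatal markers were above 0 for 0 of 6 genes, with a median log2 fold change of −0.76 and array means of 8.46 to 10.97 in CIE Drinking mice and 8.78 to 11.03 in Air Drinking mice. None of these 4 lists had a called gene. Of the 8 choroid plexus markers 4 were above 0 (median 0.00), with array means of 5.65 to 6.06 in CIE Drinking mice and 5.82 to 6.47 in Air Drinking mice, and 1 was called, Kl, with a log2 fold change of −0.62. With group means removed, Uqcrh correlated over the 45 BNST arrays with the level of the neuron markers (Pearson r = 0.71, Spearman rho = 0.70, both with a permutation p of 1e-05, the smallest that 100000 permutations can give, r = 0.70 without the 2 farthest arrays). It correlated to a like extent with the markers of endothelial cells and pericytes (r = 0.71, rho = 0.71, permutation p = 1e-05 for both, adjusted p = 8.16e-05, r = 0.74 without 2 arrays). These are among 1680 correlations of the 48 genes with 7 lists in 5 regions, each over all arrays of a region. With the choroid plexus level as a covariate, 37 of 48 genes were above 0 in this comparison (median 0.03), and the changes were 0.09 for Atp5g1, 0.10 for Uqcrh and 0.06 for Cyc1 (LIMMA adjusted p = 0.192, 0.227 and 0.363). This level spanned 0.85 log2 units in the BNST, against 5.26 in the CeA. Aqp1, Folr1, Kcne2 and Kcnj13 had low medians of 4.15 to 5.46 in the BNST and ranges of 0.50 to 0.61, while Ttr and Clic6 ranged over 3.65 and 3.02. The part of the other cell types or of the dissection in the BNST difference was not tested.

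**Figure D3:**
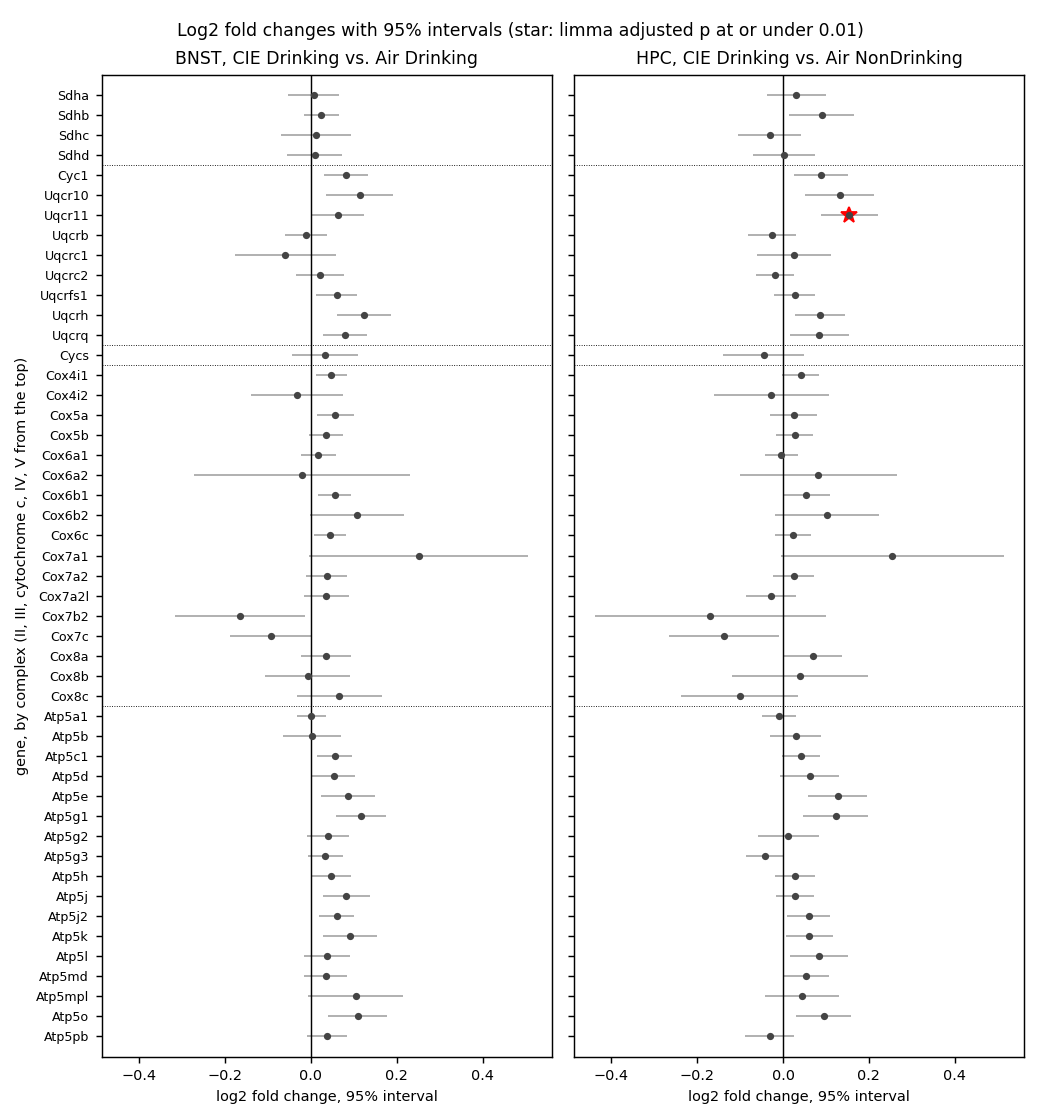
Log2 fold change with its 95% interval for each of the 48 genes in the BNST (Comparison 1, CIE Drinking vs. Air Drinking) and the HPC (Comparison 4, CIE Drinking vs. Air NonDrinking). In the BNST 41 of 48 points lie above 0, with Atp5g1 and Uqcrh at 0.12, and in the HPC 35 of 48, with Uqcr11 at 0.15.

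In the HPC, 35 of 48 genes were above 0 in Comparison 4 with a median of 0.03, against 6753 of 18064 genes and a median of −0.02. An unadjusted p under 0.05 was found for 14 genes, of which 13 were higher, against 3089 of 18064 genes. Next to Uqcr11 stood Atp5e, the epsilon subunit of the catalytic part of ATP synthase. It was 11.79, 11.90 and 11.99 in CIE Drinking mice and 11.63, 11.77 and 11.88 in Air NonDrinking mice, and all 12 CIE Drinking arrays exceeded the Air NonDrinking median. Its log2 fold change was 0.13 (SE 0.03, LIMMA adjusted p = 0.0135), and its vapor term 0.09 (adjusted p = 0.0223).

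In the other comparisons no gene was called by LIMMA, and the members with the smallest p are given as values. In the PFC none was called in Comparisons 1, 2, 3, 4 and 6, against 2.16%, 0.77%, 1.2%, 0.61% and 1.32% of all genes, and 3 to 11 of 48 had an unadjusted p under 0.05. Atp5mpl, a small membrane protein of ATP synthase, was 11.60, 12.01 and 12.09 in CIE Drinking mice and 11.67, 11.81 and 12.00 in Air Drinking mice, which gave 0.16 in Comparison 1 on the log2 scale (SE 0.05, LIMMA adjusted p = 0.0360). Atp5d, the delta subunit of the catalytic part, had −0.09 (adjusted p = 0.0450) in the same comparison. Cox7b2 had 0.25 in Comparison 2 (adjusted p = 0.0976), and Uqcrb, a small ubiquinone-binding subunit of complex III, 0.09 in Comparison 4 (adjusted p = 0.0617).

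In the NAC, 0 of 48 genes were called in Comparisons 1 to 6, against 0.066%, 0%, 0.011%, 0.995%, 0% and 0% of all genes, and 0 to 10 had an unadjusted p under 0.05. Cyc1 had −0.09 in Comparison 1 (SE 0.03, LIMMA adjusted p = 0.0595) and −0.09 in Comparison 4 (adjusted p = 0.0502), against 0.08 in Comparison 1 in the BNST. Atp5d had −0.10 in Comparison 3 (adjusted p = 0.0728). The smallest p in Comparisons 2, 5 and 6 belonged to Atp5o, the stalk protein that confers sensitivity to oligomycin (0.06), Atp5g2, a further gene for the c subunit (0.07), and Cox7a2l (−0.06), with adjusted p-values of 0.769, 1.00 and 0.899.

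In the HPC none was called in Comparisons 1, 2, 3, 5 and 6, against 0.399%, 0%, 0%, 0% and 0% of all genes. Uqcrh had 0.07 in Comparison 1 (LIMMA adjusted p = 0.116) and 0.06 in Comparison 5, and Atp5h, a subunit of the outer stalk of ATP synthase, 0.06 in Comparison 3 (adjusted p = 0.185). Uqcr11 had the smallest p in Comparisons 2 and 6, at the values given above. In the BNST none was called in Comparisons 2 to 6, against 0%, 0.0886%, 0.332%, 0% and 0%. Cox8b had −0.18 in Comparison 3 (SE 0.05, adjusted p = 0.0459), 0.17 in Comparison 2 and 0.17 in Comparison 5, at a signal below the regional median. Cyc1 had −0.08 in Comparison 6 (adjusted p = 0.406). The 12 genes with an unadjusted p under 0.05 in Comparison 6 were all lower in Air Drinking mice, and the Air Drinking arrays are shared with Comparison 1.

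The vapor, drinking and interaction terms called no gene of the 48 other than Uqcrc1 for drinking in the PFC. The share of all genes called was 0.605% for vapor and 3.04% for the interaction in the PFC. For vapor, drinking and interaction it was 0.159%, 0.0055% and 0% in the NAC, against 0.365%, 0% and 0% for the HPC, 0.0277%, 0% and 0% for the BNST and 0%, 0.162% and 0% for the CeA. The moderated F statistic called none of the 48 outside the PFC, against 0.352% of NAC, 0.675% of HPC, 0.26% of BNST and 0.301% of CeA genes. In the BNST 42 of 48 genes had an interaction above 0, with a median of 0.06. The count above 0 over all genes is not given here, so this cannot be read as particular to the 48 genes.

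The 4 genes of complex II had no called change on their brightest probesets. Sdha, which encodes the flavoprotein that oxidizes succinate, had log2 fold changes between −0.07 and 0.03 over all comparisons and regions, with a smallest LIMMA adjusted p of 0.114. Sdhb, the iron-sulfur subunit, ran from −0.04 to 0.09 (smallest adjusted p = 0.139). The membrane anchors Sdhc and Sdhd ran from −0.07 to 0.05 and from −0.08 to 0.06 outside the CeA (smallest adjusted p over all regions 0.325 and 0.0969). A further probeset of Sdhc was called in the PFC in Comparison 3, with −0.19 (SE 0.04, LIMMA adjusted p = 0.00446, against 1.87% of 45037 probesets called). The brightest probeset of Sdhc had −0.00 (adjusted p = 0.977), so that the probesets of this gene disagreed.

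Of the isoforms of complex IV, those found in most tissues had narrow ranges. Cox4i1 had log2 fold changes between −0.03 and 0.05, Cox6a1 between −0.07 and 0.02, Cox6b1 between −0.06 and 0.06, Cox7a2 between −0.05 and 0.10, and Cox8a between −0.07 and 0.07, over all comparisons and regions, and none was called. Their probesets lay at percentiles 99.5 to 99.99 of the probeset means of a region, near the top of the scale. Whether changes are narrowed there was not tested. Cox7a2l, which helps to join complexes III and IV into supercomplexes, ran from −0.08 to 0.05 (smallest LIMMA adjusted p = 0.117). The restricted forms varied more between mice, and several had low signal. Cox4i2, the lung form, and Cox7b2, best known from testis, lay below the median probeset mean in every region, Cox6b2, best known from testis, and Cox8b, the heart and muscle form in rodents, in the 4 regions other than the CeA, and Cox7a1, the heart and muscle form, in the NAC and HPC.

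Outside the CeA, Cox4i2 had log2 fold changes of −0.15 to 0.10 and Cox6a2, a muscle form that the brain expresses in parvalbumin interneurons, −0.21 to 0.21. Cox6b2 ran from −0.22 to 0.29, the highest being Comparison 1 in the PFC (LIMMA adjusted p = 0.0560). Cox7a1 ran from −0.20 to 0.25, with 0.25 in Comparison 1 in the BNST (adjusted p = 0.223) and 0.25 in Comparison 4 in the HPC (adjusted p = 0.241). Cox8b ran from −0.18 to 0.17. None was called.

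In the CeA, 0 of 48 genes were called in Comparisons 1 to 6, against 0.0111%, 0%, 0.357%, 0.318%, 0% and 0% of 17944 genes, and 0 to 2 had an unadjusted p under 0.05. The smallest p-values belonged to Cox7a2l in Comparison 1 (log2 fold change −0.08, LIMMA adjusted p = 0.287), Atp5e in Comparison 2 (0.19, adjusted p = 0.541), Cox4i2 in Comparisons 3 and 6 (−0.11 and −0.09, adjusted p = 0.397 and 0.945), Cox5a in Comparison 4 (−0.04, adjusted p = 0.614) and Atp5mpl in Comparison 5 (0.15, adjusted p = 0.574). The spread within groups was larger than elsewhere, with a median pooled SD of 0.12 over the 48 genes, against 0.06 to 0.08 in the 4 other regions. It was widest for Cox8b (1.78), Cox6b2 (1.17), Cox7a1 (0.89), Atp5g1 (0.35) and Sdhc (0.30).

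Cox8b in the CeA had log2 values of 7.12, 11.23 and 12.01 (lowest, median and highest) in CIE Drinking mice and 7.26, 11.48 and 12.15 in CIE NonDrinking mice. It had 6.69, 10.85 and 11.65 in Air Drinking mice and 6.87, 10.86 and 11.67 in Air NonDrinking mice. Each group held 1 to 4 arrays far below the rest, and the groups overlapped almost entirely. The log2 fold change of Cox8b was 1.07 in Comparison 2, −0.76 in Comparison 3 and 1.11 in Comparison 5, with SEs of 0.80, 0.72 and 0.72 and none called (smallest LIMMA adjusted p = 0.574). Cox8a, the form of the same subunit found in most tissues, stayed between 13.00 and 13.33 on the same arrays, near the top of the scale.

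The low arrays of Cox8b were the 10 arrays with a low choroid plexus level. They were 4 of 12 CIE Drinking, 1 of 11 CIE NonDrinking, 3 of 12 Air Drinking and 2 of 8 Air NonDrinking arrays. Cox8b was 6.69 to 8.29 on these 10 and 10.01 to 12.15 on the other 33. Cox7a1 was 6.66 to 7.46 on the 10 and 7.99 to 9.78 on the 33, and Cox6b2 6.09 to 7.19 on the 10 and 8.14 to 10.27 on the 33, so that neither overlapped. Sdhc and Atp5g1 did not overlap either, with 10.04 to 10.34 and 11.78 to 12.06 on the 10 arrays and 10.41 to 11.19 and 12.16 to 12.96 on the 33. Cox8a did overlap, with 13.00 to 13.18 and 13.06 to 13.33. Of the 8 choroid plexus markers measured, Kl, Folr1, Kcne2, Aqp1, Clic6, Kcnj13 and Otx2 ranged over 4.86 to 6.84 log2 units among the CeA arrays and Ttr over 1.06, near the top of the scale.

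The relation was also computed within each of the 2 sets of arrays. Group means were not removed here, so differences in level between groups enter these values. Within the 33 arrays of high choroid plexus level, Cox8b still followed that level (Pearson r = 0.96, Spearman rho = 0.95, permutation p = 1e-05 for both, adjusted p = 2.4e-05 for r over 12 relations, r = 0.96 without the 2 farthest arrays). Cox6b2 (r = 0.97, rho = 0.96), Cox7a1 (0.93 and 0.92) and Atp5g1 (0.93 and 0.90) did so with the same permutation p of 1e-05, and Cox8a less steeply (0.73 and 0.68, p = 1e-05 and 3e-05). Within the 10 arrays of low level the relation held for Cox8b (r = 0.79, rho = 0.83, permutation p = 0.00597 and 0.00458, r = 0.70 without 2 arrays) and Atp5g1 (r = 0.87, rho = 0.93, permutation p = 0.0013 and 0.00031). It held for Cox6b2 with all 10 (r = 0.81, rho = 0.76, permutation p = 0.00309 and 0.0153), but rested on the 2 farthest arrays, without which r was 0.52. It did not pass for Cox7a1 (r = 0.51, rho = 0.45, permutation p = 0.132 and 0.189) or Cox8a (r = 0.52, rho = 0.44, permutation p = 0.122 and 0.204), for which r was 0.32 and 0.75 without the 2 farthest arrays. Cox6a2 did not pass in either set (r = −0.28, rho = −0.36 over 33 arrays with permutation p = 0.110 and 0.0391, adjusted p = 0.145 and 0.0521, and r = 0.30, rho = 0.39 over 10 with permutation p = 0.401 and 0.265). Without the 2 farthest arrays its r was −0.34 over the arrays of high level and 0.77 over those of low level, so that the value at low level rests on which arrays are kept.

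**Figure D4:**
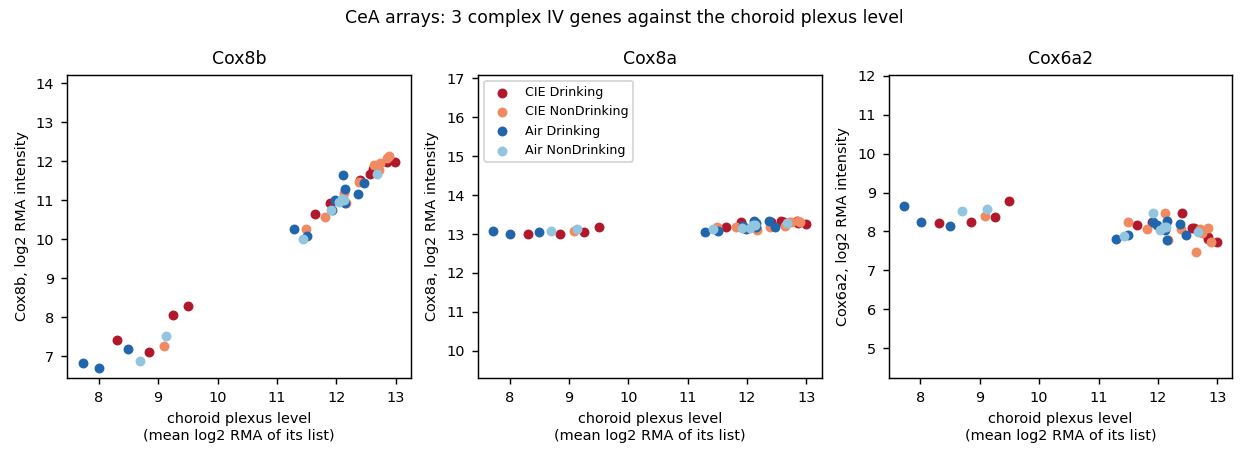
Log2 expression of Cox8b, Cox8a and Cox6a2 in the 43 CeA arrays (vertical axes) against the mean log2 level of 8 choroid plexus markers of the array (horizontal axes), coloured by treatment group. The 10 arrays with a level of up to 9.50 have Cox8b at 8.29 or lower and the 33 others at 10.01 or higher, while Cox8a stays between 13.00 and 13.33.

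Group differences in the CeA went along with this level. The 8 choroid plexus markers had median log2 fold changes of 0.91 in Comparison 2, −0.83 in Comparison 3 and 1.17 in Comparison 5, with 0 called, and array means of 8.31 to 12.99 in CIE Drinking, 9.09 to 12.89 in CIE NonDrinking, 7.73 to 12.47 in Air Drinking and 8.70 to 12.68 in Air NonDrinking mice. The 48 genes had 42, 8 and 42 members above 0 in the same comparisons, with medians of 0.05, −0.03 and 0.06, against −0.01, −0.03 and −0.00 over all genes. With the choroid plexus level as a covariate, the change of Cox8b was 0.17, 0.09 and −0.08 in Comparisons 2, 3 and 5, and the median of the 48 genes 0.02, 0.01 and 0.01. Without the 10 arrays of low level the medians were 0.04, 0.03 and 0.04, and the change of Cox8b was 0.53, 0.14 and 0.47. Again none of the 48 genes was called, against 0%, 0.139% and 0% of all genes.

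The other comparisons of the CeA moved as well when these 10 arrays were left out. In Comparison 1 the 48 genes had 42 above 0 with a median of 0.06 and 10 with an unadjusted p under 0.05 (20.8%, against 20.1% of all genes), where all arrays gave 38, 0.03 and 1. In Comparison 4 they had 40 above 0 with a median of 0.06 and 12 with an unadjusted p under 0.05 (25.0%, against 18.3% of all genes), where all arrays gave 36, 0.03 and 0. The median over all genes was −0.02 in Comparison 1 and −0.03 in Comparison 4. Cox8b then had 0.61 in Comparison 1 (LIMMA adjusted p = 0.197) and 0.67 in Comparison 4 (adjusted p = 0.204). In Comparison 6 the 48 genes had 28 above 0 and a median of 0.00. None was called in any of these comparisons, against 0%, 0.167% and 0% of all genes in Comparisons 1, 4 and 6.

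**Figure D5:**
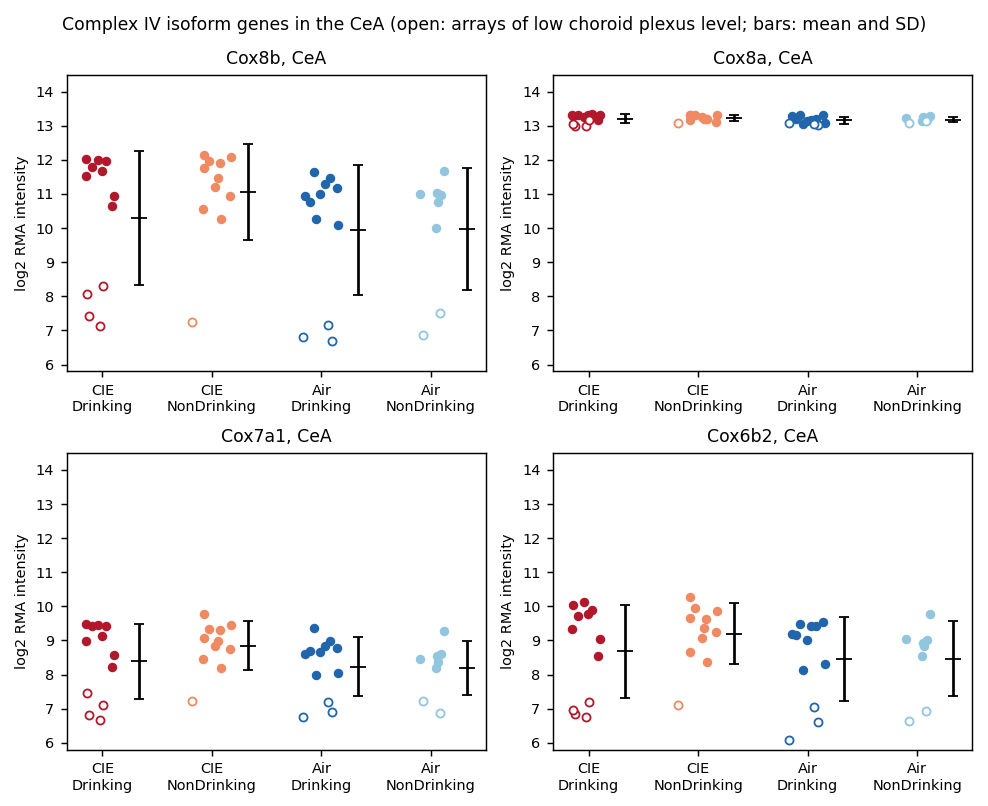
Log2 expression of Cox8b, Cox8a, Cox7a1 and Cox6b2 in the CeA by treatment group, with 1 point per array and open points for the 10 arrays of low choroid plexus level. The open points are the lowest for Cox8b, Cox7a1 and Cox6b2 in all 4 groups (Cox8b 6.69 to 8.29, against 10.01 to 12.15 for filled points), whereas those of Cox8a overlap the rest.

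The 48 genes varied together among mice more than the average pair of genes did. With group means removed, the mean pairwise correlation over the 48 genes was highest in the CeA, at 0.509, and was 0.226 for the PFC, 0.232 for the HPC, 0.187 for the BNST and 0.116 for the NAC, against 0.0116 to 0.0264 over all genes of a region and 0.0179 to 0.0466 over those at or above the median signal. These are descriptions over arrays that share their normalization, and the value in the CeA includes the spread of the choroid plexus level. In the HPC, Cox6a2 followed the markers of parvalbumin interneurons other than itself (Pearson r = 0.81, Spearman rho = 0.78, permutation p = 1e-05 for both, adjusted p = 8.16e-05 over 1680 correlations, r = 0.77 without the 2 farthest of 42 arrays). Markers of neurons correlated positively at an adjusted p of 0.05 with 23 of the 48 genes in the PFC and 28 in the HPC, with 25 in the BNST and 11 in the NAC. They correlated negatively with 2 genes each in the PFC, HPC and NAC and with 1 in the BNST. The CeA ran the other way, with 4 positive and 32 negative correlations and a median r of −0.57. This was not particular to neurons. In the CeA the positive and negative counts were 2 and 41 for astrocytes, 1 and 40 for oligodendrocytes and 1 and 38 for microglia. They were 4 and 34 for parvalbumin interneurons, but 38 and 3 for the choroid plexus. Endothelial cells and pericytes had 26 and 1 in the BNST, and parvalbumin interneurons 25 and 3 in the PFC.

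Other gene groups of mitochondria are set here against 0.377% of the pairs of all genes called. Of complex I, the NADH dehydrogenase that feeds the same chain, 33 of 36 listed genes were measured, and 3 of 990 pairs of gene and comparison were called. They were Ndufs5 (log2 fold change 0.16) and Ndufb10 (0.13) in Comparison 4 in the HPC and Ndufa6 (0.15) in Comparison 1 in the BNST. Complex I had 31 of 33 genes above 0 in the first (median 0.06) and 32 of 33 in the second (median 0.07). Of 30 assembly factors of complexes II to V, 1 of 900 pairs was called, Uqcc1, which aids assembly of complex III, lower by a log2 fold change of −0.14 in Comparison 3 in the PFC. Enzymes of the citric acid cycle and pyruvate dehydrogenase had 2 of 480 pairs called, both of Pdha1, a subunit of pyruvate dehydrogenase, with 0.11 in Comparison 2 and −0.13 in Comparison 3 in the PFC. The carriers and porins had 1 of 270, Slc25a11, the carrier of 2-oxoglutarate and malate (−0.15 in Comparison 3 in the PFC).

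Regulators of mitochondrial biogenesis had 4 of 390 pairs called, a larger share than the 0.377% over all genes. Ppargc1a, the coactivator PGC-1alpha that drives respiratory genes with NRF1, rose by LIMMA in the HPC in Comparison 1 (log2 fold change 0.49, adjusted p = 0.00582) and Comparison 4 (0.49, adjusted p = 0.00591) on its brightest probeset, whereas its 4 other probesets had 0.05 to 0.16 and were not called. Dimmer probesets of Ppargc1a were called with 0.26 in Comparison 2 in the PFC and 0.41 in Comparison 1 in the BNST. Yy1, a factor that binds many of these promoters, had 0.12 in Comparison 4 in the NAC and −0.15 in Comparison 1 in the BNST. Cytosolic ribosomal proteins had 0 of 540 pairs called, with medians between −0.05 and 0.06. The genes of complexes II to V in the HPC had medians of 0.01 and 0.03 in the comparisons in which Ppargc1a rose.

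Markers of cell types are set here against 2045 called of 542706 pairs of all genes (0.377%). Over all comparisons and regions, 2 of 300 pairs were called for astrocytes, 3 of 270 for microglia, 2 of 330 for oligodendrocytes and 1 of 240 for the choroid plexus. For neurons (360 pairs), parvalbumin interneurons (210), endothelial cells and pericytes (270) and red blood cells (90) it was 0. Nuclear-retained long noncoding RNAs had 6 of 270 pairs called, 5 of them higher. Each list with a call here had a larger share than all genes, resting on 1 to 6 called pairs.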

How the data were processed

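Male mice of 4 treatment groups were profiled in 5 brain regions on 224 Affymetrix arrays. The log2 values were used as deposited: the authors had removed arrays of low quality, summarized probes by RMA, normalized each region separately by quantiles and corrected hybridization batch with ComBat. The batch of an array is not in the labels used here, so no value within a batch could be given. Levels were not tested between regions. The choroid plexus levels of the CeA and the other regions were set side by side although each region was normalized separately. Removing batch before the test can make p-values too small or too large. Of 45037 probesets, 34945 had 1 gene symbol in the platform annotation, 932 several and 9160 none, and only the first were named. In the NAC, HPC, BNST and CeA, 10, 574, 608 and 1068 probesets had no value.

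Groups, regions and mouse numbers were read from the labels. limma 3.58.1 (R 4.3.3) was fitted per region to all probesets and all arrays, with 1 mean per group, default empirical Bayes variances, no covariate and no filter on dim probesets, and Benjamini-Hochberg adjustment per region and comparison at 0.01. All tests were two-sided, and the number of arrays limits their precision. Vapor, drinking and interaction were sum-to-zero contrasts. Differences of the PFC from another region came from a joint fit of the 5 regions, to which an alternative added the mouse number as a block, since the same number in 2 regions is the same mouse by the labels (consensus correlation 0.0146). The level of a marker list is the mean of its genes on an array. Correlations were computed after removal of group means and permuted within groups. Those within the 2 sets of CeA arrays kept the group means and were permuted over all arrays of a set. Each used 100000 permutations (Python 3.11.15, scipy 1.17.1) and was adjusted by Benjamini-Hochberg. On simulated data the fit was tested for the changes put in. The genes and lists were chosen with earlier results of these data known. Named genes were those called, up to 2 with the smallest p where none was, the isoforms of complex IV and the genes of complex II. Outlying arrays were looked for in groups of 4 to 10 arrays. Alternatives tried were quantile normalization applied again, array quality weights, an intensity trend with robust variances, leaving out dim probesets, fitting only the 2 groups compared, and averaging a gene's probesets. The choroid plexus level as a covariate, the sets with arrays left out, and the trend, renewed normalization and probeset averages for the vapor, drinking and interaction terms were added after values had been seen.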

Additional observations from a re-analysis of the deposited data

Results flagged for a closer look

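The response to CIE among drinking mice (Comparison 1) differed between regions for 2 genes by the test of the difference itself. Uqcrc2 had a difference of 0.13 on the log2 scale between the PFC and the NAC, and Atp5c1 one of −0.10 between the PFC and the BNST. Each was 1 of 48 genes, against 0.547% and 2.34% of 17924 genes, so these calls cannot be read as particular to the 48 genes.

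Single arrays stood apart from the rest of their group by Dixon's test in 6 of 51 combinations of a gene and a group of 8 or 10 arrays, over 17 genes, and chance gives about 1 in 20. Of these, 3 belonged to mouse 55 of the Air NonDrinking group in the BNST, the lowest of 10 arrays for Cox7a1 (6.52, the next lowest being 7.09), Cox7a2l (12.08, next 12.19) and Sdha (12.40, next 12.53). Without this array none of the 48 genes was called in the BNST, and their median log2 fold change in Comparison 4 was 0.01 in place of 0.02. The share of all genes called was then 0.532%, 0%, 0.105%, 0.21%, 0% and 0% in Comparisons 1 to 6. In the same group mouse 52 was the highest for Cox8b (6.07, next 5.87). Mouse 48 of the Air NonDrinking group was the lowest of 8 arrays for Uqcrc1 in the CeA (11.35, next 11.68), and mouse 50 the lowest of 8 for Cox8b in the HPC (5.81, next 6.14).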

How the results depend on the processing

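Uqcrc1 in the PFC (Comparison 5) and Uqcr11 in the HPC (Comparison 4) stayed called under each alternative fit and with any 1 array left out (0.18 to 0.20 and 0.14 to 0.17), and no called value changed sign. The median of the 48 genes moved by less than the spread between replicates in all 222 values under alternatives. This is a wide yardstick in every region. The array mean of the genes had an SD of 0.0238 in the NAC, 0.0329 in the BNST, 0.0351 in the HPC and 0.0431 in the PFC. It was widest in the CeA, at 0.157. The medians outside the CeA were at most 0.04 in size, so a small median could change sign and still count as unmoved. In Comparison 3 of the CeA the median was −0.03 with 8 of 48 genes above 0. Without the arrays of low choroid plexus level it was 0.03 with 35 of 48 above 0. Counts of called genes other than those reported (0, but 1 for Comparison 4 of the HPC and for Comparison 5, drinking and the F statistic in the PFC) were as follows. Leaving out dim probesets gave 1 gene each in Comparisons 3 and 6 of the PFC (Uqcrc1), 2 in Comparison 4 of the HPC (with Atp5e), 1 for vapor and 1 by the F statistic in the HPC, and 1 in Comparison 1 of the BNST (Atp5g1). A trend with robust variances gave 1, 1, 2 and 1 in those 4 comparisons, renewed quantile normalization 1 in Comparison 6 of the PFC, 2 in Comparison 4 of the HPC and 1 for vapor there (Uqcr11), and the mean of all probesets 1 in Comparison 6 of the PFC. Array quality weights gave 1 gene each in Comparisons 1 and 3 and for the interaction in the PFC and 2 by the F statistic there, 5, 3 and 1 for Comparison 4, vapor and the F statistic in the HPC, and 7, 4 and 2 for Comparison 1, the interaction and the F statistic in the BNST. Under these weights the F statistic called 10.4% of all genes in the PFC, 2.08% in the HPC and 6.28% in the BNST. The cause of this was not tested. With dim probesets left out, the F statistic called 1.27% of all genes in the HPC. Apart from Comparison 1 of the BNST under weights, given above, the other counts have no share of all genes beside them. They cannot be read as a rise particular to the 48 genes. With the mouse number as a replicate block the region differences of Uqcrc2 and Atp5c1 were 0.13 (adjusted p = 0.00371) and −0.10 (adjusted p = 0.00688) by limma, and no call changed. Within a region the groups share no mouse number, so no pairing exists there. With the choroid plexus level as a covariate, the changes in the CeA in Comparisons 2, 3 and 5 were 0.17, 0.09 and −0.08 for Cox8b (1.07, −0.76 and 1.11 without it), 0.22, −0.05 and 0.05 for Cox7a1 and 0.14, 0.05 and −0.02 for Cox6b2. The number of arrays sets the precision, and the 95% interval of a log2 fold change reached, in the median over the genes, 0.0553 to 0.0696 to either side outside the CeA and 0.0983 to 0.112 in the CeA.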
